A study of Mus musculus with 9 samples.

Results

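The genes described here encode the proteins of the cytosolic ribosome. They were chosen by name: rows of the deposited gene table whose symbol begins with Rpl or Rps followed by a digit or the letter p, without the Rps6k kinases and without symbols marked as pseudogenes. The rule takes 88 of 12474 rows, 53 named for the large subunit and 35 for the small subunit. Of these, 76 are canonical ribosomal proteins, 46 of the large and 30 of the small subunit. The other 12 are paralogs and copies (Rpl3l, Rpl6l, Rpl7l1, Rpl22l1, Rpl32l, Rpl36al, Rpl37rt, Rps3a2, Rps3a3, Rps27l and Rps27rt) and Rps19bp1, which encodes a protein that binds Rps19. Rpl6l, Rpl32l, Rpl37rt, Rps3a2 and Rps3a3 are annotated as pseudogenes in GENCODE vM21.

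Poly(A) RNA of wild-type RAW264.7 cells, a mouse macrophage line, was sequenced in 9 libraries, 3 for each of 3 groups. The group called I was polarized with lipopolysaccharide (LPS, 100 ng/ml) and mouse interferon gamma (50 ng/ml), with potassium iodide (20 mM) added. The M1 group was polarized with the same 2 agents and no iodide, and the Mock group is the untreated control. No other salt was tested, so effects of iodide, of potassium and of osmolarity cannot be told apart, and the labels give no length of treatment. The labels do not name separate cultures for the 3 libraries of each group. The p-values below therefore measure only how far libraries spread, and that spread may be technical. All 10 macrophage markers checked were present, with a summed level of 2454 to 2567 FPKM in I, 3347 to 3457 FPKM in M1 and 4718 to 4808 FPKM in Mock, and the part of that difference in the results below was not tested. Of the dendritic cell markers 3 of 4 had a row, with a sum of at most 0.64 FPKM in any library. The neutrophil, fibroblast, epithelial and lymphocyte markers were not analysed here. The libraries held 17431070 to 25470730 fragments, as recovered from the values.

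A ribosome carries nearly all of its proteins in equal numbers, and cells degrade ribosomal proteins that are left unassembled. The messenger RNAs are among the most abundant in growing cells. Most of them start with a terminal oligopyrimidine (TOP) tract, a C followed by an unbroken run of pyrimidines, through which the kinase mTOR and the RNA-binding protein Larp1 control their translation. Activated macrophages remodel translation along with transcription, and a few ribosomal proteins have roles outside the ribosome in inflammatory cells.

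Ribosomal protein RNA took a large share of the measured RNA in every library. The values are FPKM, fragments per length of gene and size of library, so levels of different genes can be set side by side per length. The summed level of the 88 members was 21127 to 22553 FPKM in the I libraries, 24710 to 25955 FPKM in the M1 libraries and 20040 to 21467 FPKM in the Mock libraries. That is 7.13% ± 0.177 of all FPKM in I, 8.11% ± 0.170 in M1 and 7.66% ± 0.213 in Mock (SD, n = 3 each). The M1 libraries lay above all others in both measures. In the sum the ranges of I and Mock overlapped, while in the share of all FPKM every I library lay below every Mock library. The median canonical member had a group mean of 208 FPKM in I, 251.5 FPKM in M1 and 224 FPKM in Mock. In bulk RNA, fewer cells of a type and less RNA per cell cannot be told apart, and a share of FPKM says nothing of RNA per cell.

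The 6 highest members were Rplp1, Rps3a1, Rpl4, Rpl8, Rplp0 and Rps6. Rps3a1, a protein of the small subunit's solvent side, had 1309, 1288 and 1238 FPKM in I, 1372, 1379.6 and 1309.8 FPKM in M1, and 1172, 1211 and 1226 FPKM in Mock. Its M1 libraries were highest and its Mock libraries lowest, with no overlap, on the deposited scale. Quantile normalization turned the M1 against Mock log2 fold change to -0.32, called lower, and I against M1 was -0.01 and not called under RLE scaling (adjusted p = 0.860). At the other end, canonical members Rpl24, Rps10 and Rpl21 averaged 0.542, 3.19 and 4.20 FPKM over the 9 libraries. Rpl24 rested on 3 to 22 fragments per library. In all, 8 canonical members averaged under 50 FPKM and 56 above 100 FPKM. FPKM here divides by all annotated exons, so a gene with long, rarely used exons can read low: the exons of Rps20 span 4080 bases, against a coding sequence of 357 bases.

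In M1 cells, most ribosomal protein RNAs were called higher than in Mock cells on the deposited scale, as they were under RLE and upper quartile scaling but not under quantile normalization. A member was called where limma gave a Benjamini-Hochberg adjusted p under 0.05 in a model fitted to log2(FPKM + 1) of all 11156 rows that passed a filter on low values. Of the 88 members, 87 passed, the exception being Rpl3l, a muscle paralog of Rpl3, at a mean of 0.204 FPKM in I, 0.0800 FPKM in M1 and 0.106 FPKM in Mock. For M1 against Mock, 68 of 87 members were called higher and 6 lower, where 30.5% of all genes tested were called higher and 55.3% lower. The median log2 fold change of the members was 0.32, and that of all genes tested was -0.23. In 64 of the 87 members all 3 M1 libraries lay above all 3 Mock libraries, a pattern seen in 30.7% of all genes tested, and in 6 members all 3 lay below, beside 55.6%. A change of at least 2-fold was called for 1 member, Rps10.

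The size of that difference and the balance of calls depend on how the libraries are set to a common scale. Median-of-ratios (RLE) scaling put the median of all genes at 0.01 in place of -0.23 and gave 82 members higher and 2 lower with a median of 0.62, where 43.1% of all genes were called higher and 42.6% lower. Upper quartile scaling gave 77 higher and 2 lower with a median of 0.50, beside 37.5% and 47.7% of all genes. Quantile normalization, which forces every library to 1 distribution of values, gave 31 higher and 30 lower with a median of 0.04, beside 42.1% and 42.9% of all genes. Under all 4 scalings 29 members were called higher, 15 of the large and 14 of the small subunit, and 1, Rpl7l1, was called lower. The share of all genes called under all 4 scalings was not computed, so these counts have no background beside them.

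In I cells, most ribosomal protein RNAs were called lower than in M1 cells, in both subunits and under all 4 scalings tried. For I against M1, 67 of 87 members were called lower and 0 higher, where 39.3% of all genes tested were called lower and 24.9% higher. The count of 0 is the same in voom, and 0 members had a positive change at an unadjusted p under 0.05. The members' median log2 fold change was -0.24, beside -0.07 for all genes tested. All 3 I libraries lay below all 3 M1 libraries in 66 of the 87 members, a pattern found in 40.8% of all genes tested, and 0 members had the reverse pattern, found in 26.4%. RLE scaling gave 56 lower and 0 higher, beside 31.7% and 31.2% of all genes. Upper quartile scaling gave 65 lower and 0 higher, beside 35.6% and 27.8%. Quantile normalization gave 49 lower and 3 higher, beside 32.4% and 30.2%. Under all 4 scalings 47 members were called lower, 28 of the large and 19 of the small subunit, and 0 higher. For these counts too, no share of all genes was computed.

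Against Mock, the I cells showed a split picture. For I against Mock, 36 of 87 members were called higher and 22 lower, where 28.2% of all genes tested were called higher and 58.6% lower. The members' median was 0.09, against -0.30 for all genes tested, and it turned negative, at -0.11, under quantile normalization. All 3 I libraries lay above all 3 Mock libraries in 32 members (28.5% of all genes tested) and below them in 23 (58.6%). RLE scaling gave 78 higher and 6 lower, beside 42.7% and 42.9% of all genes. Upper quartile scaling gave 62 higher and 7 lower, beside 36.1% and 49.6%. Quantile normalization gave 20 higher and 43 lower, beside 41.6% and 43.4%. Across all 4 scalings 15 members were called higher, among them Rps20, Rps28, Rps27 and Rpl39, and 5 lower, namely Rpl3, Rpl4, Rpl24, Rpl7l1 and Rps2. Here again no share of all genes called under all 4 was computed. The 3 comparisons share libraries, so their counts are not independent of each other.

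**Figure D1:**
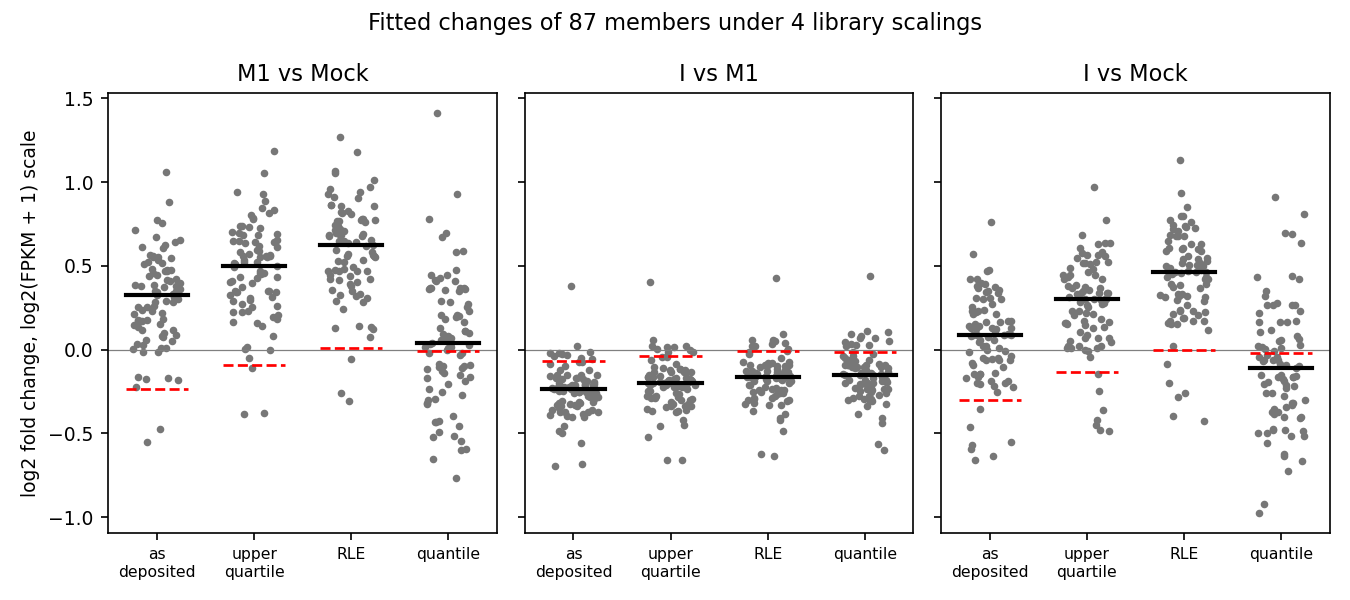
Fitted log2 fold changes (log2(FPKM + 1) scale, vertical axis) of 87 members in 3 comparisons, under the FPKM as deposited and 3 other library scalings; each dot is a member, the black bar the members' median and the red dashed line the median of all genes tested. For M1 vs Mock the members' median is 0.32 as deposited and 0.04 under quantile normalization, for I vs M1 it is below 0 under all 4, and for I vs Mock it is 0.09 as deposited and -0.11 under quantile normalization.

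Both subunits took part. For M1 against Mock, 36 of 52 large subunit members were called higher and 6 lower, with a median log2 fold change of 0.27. Of 35 small subunit members, 32 were called higher and 0 lower, with a median of 0.36. The shares of all genes tested were 30.5% higher and 55.3% lower. Under quantile normalization the large subunit had 16 higher and 20 lower and the small subunit 15 higher and 10 lower. There 42.1% of all genes were called higher and 42.9% lower. For I against M1, the large subunit had 40 members lower with a median of -0.24 and the small subunit 27 lower with a median of -0.23. The share of all genes called lower was 39.3%. For I against Mock, 21 large subunit members were higher and 19 lower, beside 15 higher and 3 lower of the small subunit, where 28.2% of all genes tested were called higher and 58.6% lower. RLE scaling gave 44 higher and 5 lower of the large subunit and 34 and 1 of the small, beside 42.7% and 42.9% of all genes. Quantile normalization gave 9 higher and 26 lower of the large subunit and 11 and 17 of the small. There the shares of all genes were 41.6% higher and 43.4% lower.

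The ratio of summed large to summed small subunit FPKM, which a single scaling factor per library leaves as it is, was 1.48 ± 0.0119 in I, 1.51 ± 0.0181 in M1 and 1.53 ± 0.0108 in Mock (SD, n = 3 each). By library the ratio was 1.49, 1.47 and 1.49 in I, 1.53, 1.49 and 1.50 in M1, and 1.52, 1.54 and 1.53 in Mock. The I libraries lay below all Mock libraries, while the M1 range touched that of both other groups. The order of I and Mock turned with the ratio of median in place of summed levels, at 0.996 in I, 1.01 in M1 and 0.952 in Mock. These ratios were not tested.

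**Figure D2:**
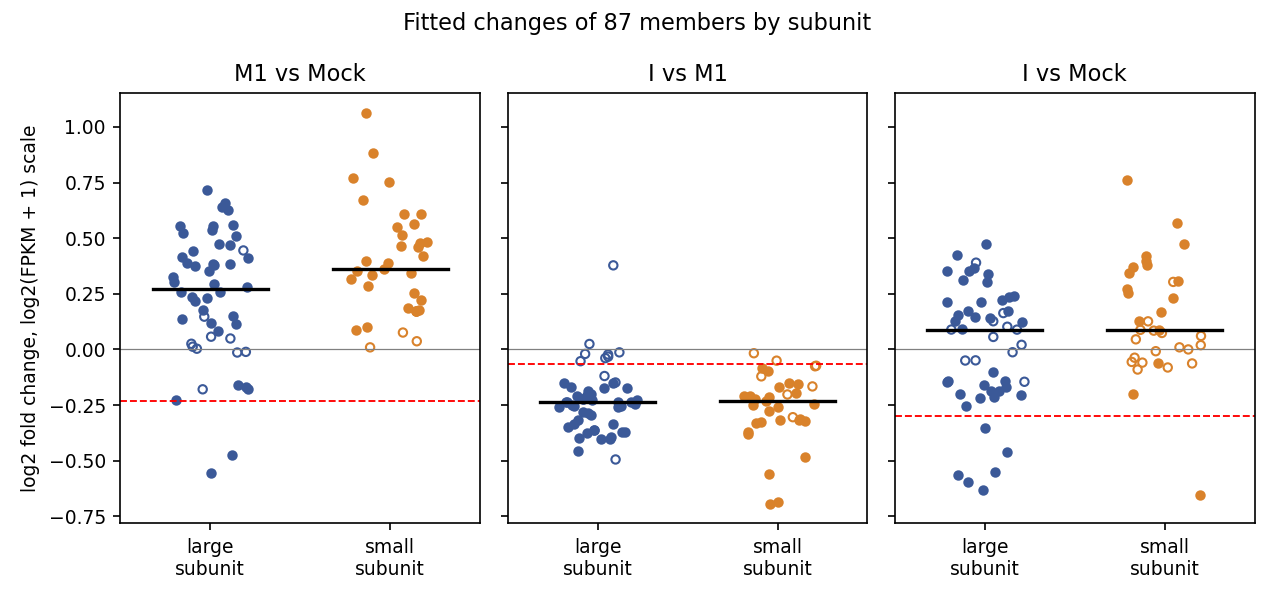
Fitted log2 fold changes (log2(FPKM + 1) scale, vertical axis) of 52 large and 35 small subunit members in the 3 comparisons, with filled circles for members called by limma, a black bar for each subunit's median and a red dashed line for the median of all genes tested. For M1 vs Mock the medians are 0.27 and 0.36, which fall to 0.03 and 0.09 under quantile normalization, and for I vs M1 they are -0.24 and -0.23.

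Start sites of selected members are shown because the TOP tract is the feature through which translation of these mRNAs is known to be controlled. RefSeq promoters (GRCm38.p6) matched 65 of the 88 members, 56 of them canonical. The letters searched were a C at the annotated start followed by at least 4 pyrimidines, on the coding strand. In these windows of 30 bases, 10 before the annotated start and 20 from it, capitals mark the run. Rpl15 and Rpl35 carry the longest runs among the matched members, Rps10 and Rps6 other long ones, and Rps27 and Rplp2 shorter ones. Rpl4, Rps2 and Rpl7l1 are shown as members without one exactly at the annotated start. The window of Rps2 holds a run a few bases after its start, left in small letters.
Rpl15: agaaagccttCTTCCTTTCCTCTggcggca
Rpl35: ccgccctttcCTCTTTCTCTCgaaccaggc
Rps10: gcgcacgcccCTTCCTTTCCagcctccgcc
Rps6: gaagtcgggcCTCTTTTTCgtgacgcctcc
Rps27: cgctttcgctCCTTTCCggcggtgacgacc
Rplp2: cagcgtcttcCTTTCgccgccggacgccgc
Rpl4: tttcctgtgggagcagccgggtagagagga
Rps2: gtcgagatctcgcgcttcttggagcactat
Rpl7l1: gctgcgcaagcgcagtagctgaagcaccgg

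These windows lie at chr14:18270967-18270996 on the minus strand for Rpl15, chr2:39005112-39005141 minus for Rpl35, chr17:27635225-27635254 minus for Rps10 and chr4:86857348-86857377 minus for Rps6. Those of Rps27, chr3:90213629-90213658 minus, Rplp2, chr7:141447641-141447670 plus, and Rpl4, chr9:64173377-64173406 plus, follow. The windows of Rps2, chr17:24720053-24720082 plus, and Rpl7l1, chr17:46782637-46782666 minus, complete the set. Such a run stood exactly at the annotated start in 13 of 56 canonical members (23.2%), beside 2.84% of the other genes tested that have a promoter in the table. Within 10 bases of the start on either side, 30 of 56 canonical members held it (53.6%), beside 31.5% of those other genes. The letters CCGGAAG, searched on both strands over the 300 bases of each promoter, stood in 41.1% of the canonical members and in 22.2% of the other genes. A match is a description of these letters, and an annotated start a few bases off the true one hides a run.

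The 13 canonical members with a run at the start had a median log2 fold change of 0.41 for M1 against Mock and -0.32 for I against M1, and all 13 were called higher in the first and lower in the second, where 30.5% and 39.3% of all genes tested were. Under quantile normalization 6 of the 13 were called higher and 3 lower in M1, beside 42.1% and 42.9% of all genes. In I, 8 were lower under quantile normalization and 9 under RLE scaling, beside 32.4% and 31.7% of all genes. The 43 without one had medians of 0.35 and -0.24, with 33 called higher and 3 lower in M1, and 35 lower and 0 higher in I. Quantile normalization gave 15 of the 43 higher and 16 lower in M1, beside the same 42.1% and 42.9%. The 13 also have the shorter coding sequences, with a median of 390 bases against 471 bases, a property that moves with the fold changes as described below. Its part in the difference was not tested.

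Among the stalk proteins, which recruit the translation factors to the large subunit, 3 of 4 were called higher in M1 as deposited. Of all genes tested, 30.5% were called higher. Under quantile normalization only Rplp2 of the stalk proteins was called higher, at 0.23 (limma, adjusted p = 0.00816). Rplp1 (chr9:61913284-61914542 of GRCm38, minus strand), an acidic stalk protein and the highest member of all, had 1812, 1534 and 1720.0 FPKM in I, 1914, 2027 and 2007 FPKM in M1, and 1193, 1257 and 1324 FPKM in Mock. The 3 groups did not overlap, with M1 highest and Mock lowest. Its log2 fold change was 0.66 ± 0.06 (SE) for M1 against Mock (limma, adjusted p = 7.99e-07), which quantile normalization turned to -0.02, and -0.23 ± 0.06 for I against M1 (limma, adjusted p = 0.00474).

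Rplp0, the base of the stalk, had 921, 874 and 853 FPKM in I, 866, 935 and 921 FPKM in M1, and 616, 645 and 647 FPKM in Mock. Its I and M1 libraries overlapped, and all 6 lay above Mock. The M1 against Mock difference was 0.51 ± 0.04 (SE; limma, adjusted p = 1.76e-07; -0.02 under quantile normalization), while I against M1 was -0.04 ± 0.04 (adjusted p = 0.389). Rplp2, the partner of Rplp1, was higher by 0.56 in M1 and lower in I against M1, at -0.34, both called. Rpl12, which anchors the stalk base, differed by -0.01 between M1 and Mock (adjusted p = 0.71), but RLE and upper quartile scaling called it higher, at 0.29 and 0.16, and quantile normalization lower, at -0.43. Across the 4 stalk genes the log2 fold change for I against M1 ranged from -0.34 for Rplp2 to -0.04 for Rplp0.

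Rpl5 and Rpl11, which with 5S ribosomal RNA form a particle that also binds the p53 inhibitor Mdm2, took opposite signs between M1 and Mock. Rpl5 had 209, 211 and 202 FPKM in I, 219.7, 211 and 213 FPKM in M1, and 236, 247 and 239 FPKM in Mock. All 6 polarized libraries lay below Mock. It was called lower in M1, at -0.16 ± 0.03 (SE; limma, adjusted p = 0.000207), but RLE and upper quartile scaling gave 0.14 and 0.01. Rpl11 was called higher, at 0.14 ± 0.04 (adjusted p = 0.0117), which quantile normalization turned to -0.20. In I against M1, Rpl11 was lower, at -0.28 ± 0.04 (adjusted p = 0.000207), and Rpl5 differed by -0.05 ± 0.03 (adjusted p = 0.117). The sign of neither gene between M1 and Mock held on every scale.

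All 8 proteins of the peptide tunnel exit (Rpl17, Rpl19, Rpl22, Rpl23a, Rpl26, Rpl31, Rpl35 and Rpl39), where nascent chains leave the ribosome, were called higher in M1 than in Mock, where 30.5% of all genes tested were. Their log2 fold changes ran from 0.15 for Rpl22 to 0.71 for Rpl39, with a median of 0.40, but under quantile normalization Rpl17 and Rpl23a were called lower, at -0.23 and -0.17, and Rpl19 and Rpl26 were not called, which left 4 of the 8 called higher. Rpl39, a short protein lining the tunnel, had 63.7, 55.6 and 61.4 FPKM in I, 72.6, 85.1 and 77.4 FPKM in M1, and 42.4, 45.8 and 54.5 FPKM in Mock. Its groups did not overlap. In I against M1, 6 of the 8 were called lower, beside 39.3% of all genes, while Rpl26 and Rpl23a were not, at -0.02 each (adjusted p = 0.656 and 0.676). RLE scaling called 5 lower, beside 31.7% of all genes. Quantile normalization called 5 lower and 1 higher, beside 32.4% and 30.2%, the latter being Rpl23a at 0.11 (limma, adjusted p = 0.0187). Rpl22, an RNA-binding protein of the large subunit, fell most in this group in I, at -0.40 ± 0.04 (SE; limma, adjusted p = 1.48e-05).

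The 2 proteins at the mRNA entry of the small subunit, Rps2 and Rps3, gave different calls between M1 and Mock as deposited. Both were called lower in I than in M1. Rps2 (chr17:24718116-24721929, plus strand) had 51.4, 52.3 and 51.4 FPKM in I, 78.6, 87.1 and 87.2 FPKM in M1, and 80.8, 82.4 and 83.0 FPKM in Mock. The I libraries stood far below all others, and the M1 and Mock libraries overlapped. This was the largest fall of any member in I against M1, -0.69 ± 0.04 on the log2 scale (SE; limma, adjusted p = 8.37e-08), and against Mock it was -0.66 ± 0.04 (adjusted p = 1.56e-08). Both differences were called lower under all 4 scalings. M1 and Mock differed by 0.04 (adjusted p = 0.376), a value that other scalings moved between -0.10 and 0.33. Rps3, which in human cells also joins the transcription factor NF-kappaB, had 274, 265 and 260.0 FPKM in I, 291, 310.5 and 297 FPKM in M1, and 223, 222 and 224 FPKM in Mock. The groups did not overlap, and Rps3 was called higher in M1 than in Mock under all 4 scalings, at 0.42 as deposited. In I against M1, Rps3 was called lower, at -0.17 ± 0.03 (SE; limma, adjusted p = 0.00048). Quantile normalization did not call that fall, at -0.03 (adjusted p = 0.312).

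At the mRNA exit, Rps14, Rps26 and Rps28 were called higher in M1, with log2 fold changes of 0.46, 0.67 and 0.77, that of Rps14 not called under quantile normalization (adjusted p = 0.0538). Rps28 had 52.9, 40.8 and 50.0 FPKM in I, 48.0, 61.1 and 56.6 FPKM in M1, and 27.6, 29.8 and 38.9 FPKM in Mock. Its I and M1 libraries overlapped, and all 6 lay above the Mock libraries. Rps26, which reads the sequence before the start codon, had 395, 382 and 409 FPKM in I, 455, 489 and 490.0 FPKM in M1, and 281, 304 and 316 FPKM in Mock. Its 3 groups stood apart, with M1 highest and Mock lowest. Rps14 and Rps26 were called lower in I than in M1, at -0.37 and -0.28, and Rps28 was not, at -0.20 (adjusted p = 0.201, though voom called it lower).

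The largest rise of an abundant member in M1 was that of Rps20 (chr4:3831334-3835665, minus strand), a protein of the small subunit head. It had 158, 135 and 149.7 FPKM in I, 149.7, 166 and 165 FPKM in M1, and 83.6, 85.3 and 90.9 FPKM in Mock. The 6 polarized libraries were all above the 3 Mock libraries and overlapped each other. Rps20 was higher by 0.88 ± 0.06 in M1 against Mock (SE; limma, adjusted p = 5.68e-08) and by 0.76 ± 0.06 in I against Mock (adjusted p = 1.98e-07), and differed by -0.12 ± 0.06 in I against M1 (adjusted p = 0.0898, though voom called it lower). A pseudogene copy with 99.7% identity to Rps20 averaged 131 FPKM in I, 134 FPKM in M1 and 72.7 FPKM in Mock, a log2 fold change of 0.88 for M1 against Mock. Rps27, a zinc-binding small subunit protein, was the next of the called rises after Rps28, at 0.75 ± 0.09 (adjusted p = 1.05e-05).

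**Figure D3:**
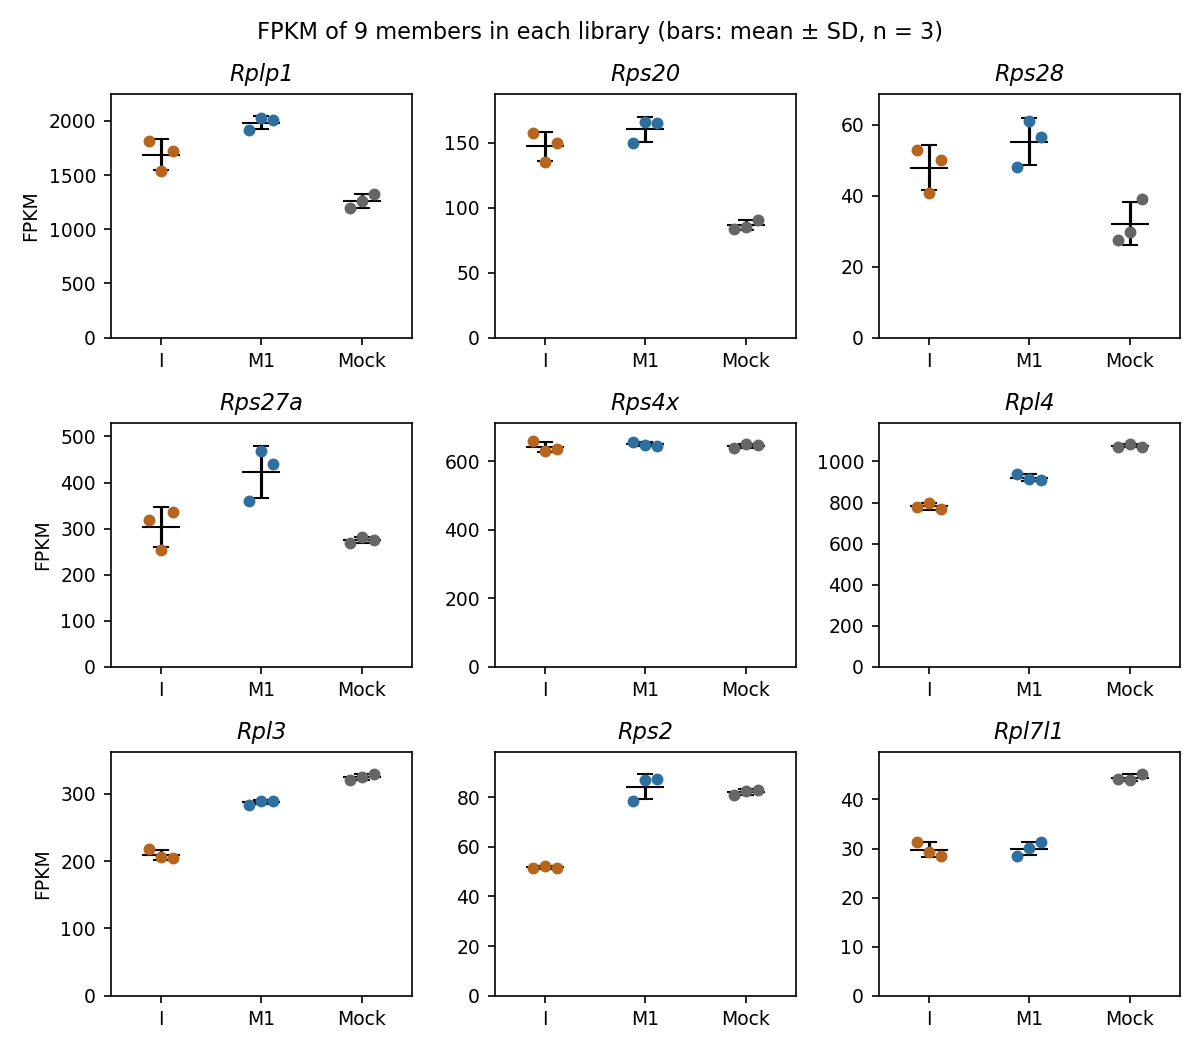
FPKM (vertical axis, from 0) of 9 members in each library, with the mean and SD over the 3 libraries of I, M1 and Mock. Rplp1, Rps20 and Rps28 are higher in M1 than in Mock as deposited (Rplp1 not under quantile normalization), Rps27a is highest in M1 as deposited (not called against Mock under quantile normalization, and called higher in I than in Mock under RLE and upper quartile scaling), Rps4x lies between 631 and 658 FPKM in all 9 libraries, Rpl4 and Rpl3 are highest in Mock as deposited (under RLE scaling both were higher in M1 than in Mock), Rps2 is low in I, and Rpl7l1 is high in Mock.

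The ubiquitin fusion gene Rps27a, which supplies both a small subunit protein and free ubiquitin, had 319, 253 and 335 FPKM in I, 360.0, 469 and 441 FPKM in M1, and 269, 282 and 274 FPKM in Mock. The M1 libraries lay above all others and the I libraries spread on both sides of the Mock range. It was higher in M1 than in Mock by 0.61 ± 0.11 (SE; limma, adjusted p = 0.000258), or by 0.17 with adjusted p = 0.122 under quantile normalization. Against M1 it fell in I by 0.48 on the log2 scale (adjusted p = 0.00242), and I and Mock differed by 0.13 (adjusted p = 0.287), which RLE and upper quartile scaling called higher in I, at 0.50 and 0.34.

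The 2 members chosen for known links to signalling had small differences. Rps6, the small subunit substrate of the S6 kinases, had 634, 616 and 594 FPKM in I, 698, 677 and 680.4 FPKM in M1, and 614, 664 and 639.7 FPKM in Mock. The M1 libraries lay above all others, and those of I and Mock overlapped. It was called higher in M1 by 0.10 ± 0.03 (SE; limma, adjusted p = 0.0174), -0.43 under quantile normalization, and the call was lost without Mock replicate 1 (adjusted p = 0.0734) or without M1 replicate 1 (adjusted p = 0.0547). Rpl13a, which in human monocytic cells leaves the ribosome after interferon gamma to silence inflammatory mRNAs, had 14.1, 13.6 and 12.5 FPKM in I, 11.7, 13.7 and 14.2 FPKM in M1, and 11.9, 11.4 and 12.1 FPKM in Mock. The groups overlapped, apart from I above Mock, and its change of 0.15 in M1 missed the threshold (adjusted p = 0.0522). The 3 other scalings called it higher, at 0.31 to 0.42, as voom did, and so did the fits without M1 replicate 1 (0.22, adjusted p = 0.00241) or without I replicate 3 (adjusted p = 0.0432). It also passed at 0.25 (adjusted p = 0.00154) once its pseudogene copies were added to it.

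The 4 canonical members called lower in M1, Rpl3, Rpl4, Rpl5 and Rpl10a, all have coding sequences longer than 462 bases. Rpl4 (chr9:64173375-64178666, plus strand), a large subunit protein with an extension into the tunnel wall, had 779.6, 798 and 766 FPKM in I, 939, 916 and 907 FPKM in M1, and 1072, 1086 and 1072 FPKM in Mock. The groups did not overlap. Its log2 fold change was -0.23 ± 0.03 for M1 against Mock (SE; limma, adjusted p = 6.62e-06), but 0.08, called higher, under RLE scaling and not called under upper quartile scaling. Rpl3, which lies near the peptidyl transferase centre, had 217, 206 and 205 FPKM in I, 284, 289.8 and 289 FPKM in M1, and 320.4, 325 and 329 FPKM in Mock. It changed by -0.18 in M1 against Mock, 0.12 under RLE scaling and not called under upper quartile scaling, and by -0.46 ± 0.03 in I against M1 (limma, adjusted p = 1.83e-07). The fall in I was called under all 4 scalings. Rpl10a, of the L1 stalk, changed by -0.17 in M1 against Mock, 0.13 under RLE scaling and 0.01 under upper quartile scaling.

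Rps4x, the X-linked small subunit protein, was the flattest of the abundant members on the deposited scale. It had 658, 631 and 636 FPKM in I, 657, 647 and 644 FPKM in M1, and 638, 649.7 and 648 FPKM in Mock. None of its comparisons was called (limma, adjusted p = 0.557 to 0.766), though RLE and upper quartile scaling called it higher in M1, at 0.31 and 0.18, and quantile normalization lower at -0.59. Rpl8, near the catalytic centre, likewise was not called between M1 and Mock (adjusted p = 0.0948). RLE and upper quartile scaling called it higher, at 0.35 and 0.22, as voom did at 0.05, and quantile normalization called it lower, at -0.52. It fell in I by 0.25 against M1.

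**Figure D4:**
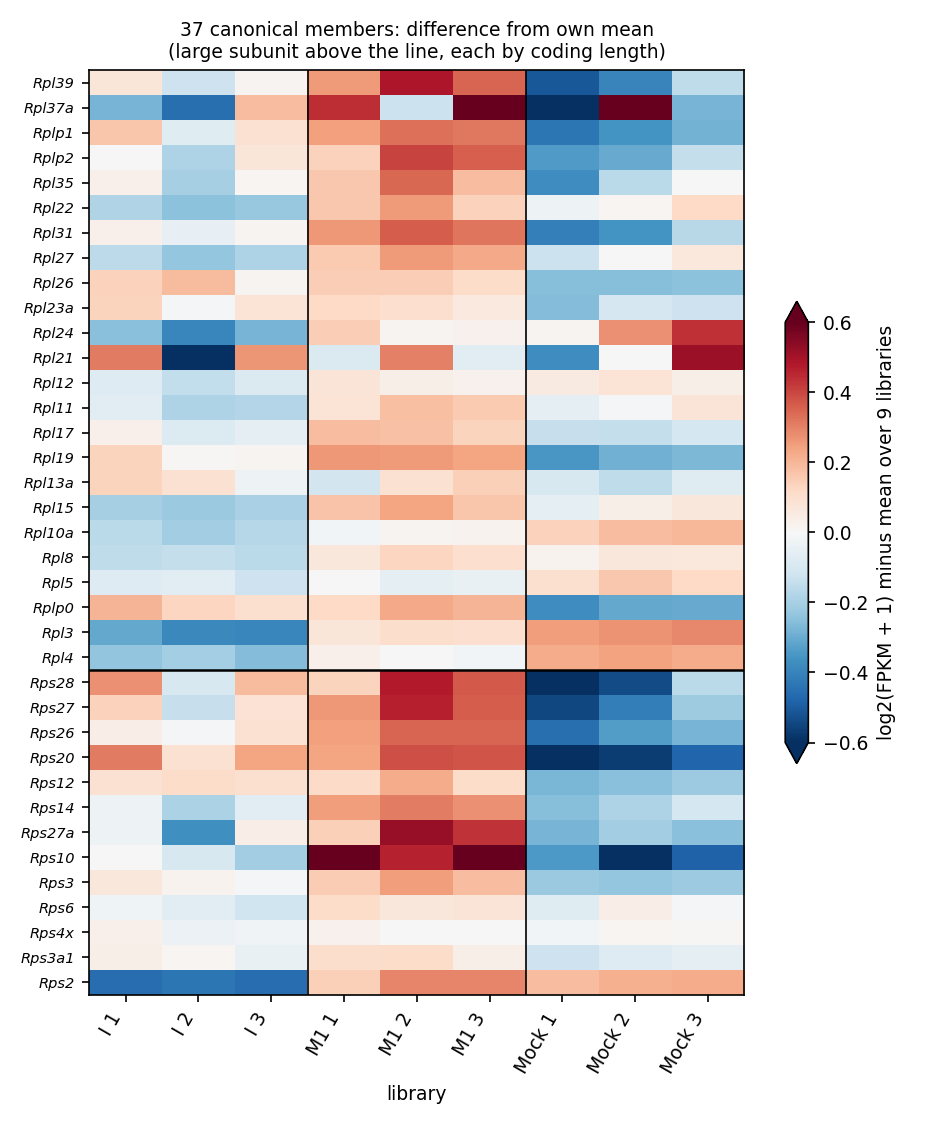
Difference of log2(FPKM + 1) in each library (columns: I, M1, Mock) from the gene's own mean over the 9 libraries, as deposited, for 37 canonical members named in the text (rows, large subunit above the line, each subunit ordered from short to long coding sequence). Most short members are highest in the 3 M1 columns, Rpl4, Rpl3 and Rpl10a are highest in Mock (under RLE scaling higher in M1 than in Mock), Rps2 is low in the 3 I columns, and Rpl37a and Rpl21 vary between libraries of 1 group.

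Of 10 paralogs and copies tested, 5 were called higher, 2 lower and 3 not called in M1 against Mock. Of all genes tested, 30.5% were called higher and 55.3% lower. RLE scaling gave 7 higher and 2 lower, beside 43.1% and 42.6% of all genes. Rpl7l1 (chr17:46773907-46782672, minus strand), a paralog of Rpl7 known in human cells to act in making the large subunit, had 31.4, 29.3 and 28.4 FPKM in I, 28.5, 30.1 and 31.3 FPKM in M1, and 44.1, 44.0 and 45.2 FPKM in Mock. All 6 polarized libraries lay below Mock. It was lower in M1, at -0.55 ± 0.04 (SE; limma, adjusted p = 2e-07), and differed by -0.01 in I against M1 (adjusted p = 0.798). Rps27l, a p53 target in human cells, had 57.9, 51.4 and 57.7 FPKM in I, 77.0, 84.1 and 86.2 FPKM in M1, and 61.1, 63.5 and 67.5 FPKM in Mock. The groups did not overlap, with I lowest and M1 highest. It was higher in M1 than in Mock by 0.36 ± 0.06 and lower in I than in M1, at -0.56 ± 0.06 (limma, adjusted p = 9.91e-05 and 8.64e-06). Rpl36al fell in M1 by 0.48 on the log2 scale (limma, adjusted p = 0.00344, and 0.340 under quantile normalization), at 11 to 52 fragments per library. Rps19bp1, which is no paralog, was called higher in M1 by 0.18 (adjusted p = 0.0201), lost without Mock replicate 3 (0.0851) or without M1 replicate 3 (0.0764).

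Ribosomal protein genes have many processed pseudogenes, and reads can fall on either, so the values of some members are uncertain. Of the 76 canonical members, 73 had at least 1 annotated pseudogene of at least 90% identity, with a median of 9 each and up to 83 for Rpl7a. The table holds 170 such rows, matched to 57 members. The clearest case is Rps10, a small subunit protein at the mRNA side, with 2.98, 2.73 and 2.45 FPKM in I, 5.07, 4.49 and 5.38 FPKM in M1, and 2.14, 1.61 and 1.84 FPKM in Mock. Its log2 fold changes were the largest rise in M1, 1.06 ± 0.08 (SE; limma, adjusted p = 2.43e-07), and among the largest falls in I, -0.68 ± 0.08. The processed pseudogene Rps10-ps2, 99.1% identical, had 198, 181 and 175 FPKM in I, 198, 216 and 196 FPKM in M1, and 164, 159 and 177 FPKM in Mock.

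With the pseudogene rows added to their members, Rps10 rose by 0.36 in M1 and changed by -0.19 in I against M1. The member counts moved by at most 1, to 69 higher and 6 lower for M1 against Mock and 67 lower for I against M1. Over the 87 members the sum changed the call of 1 in M1 against Mock and of 2 in I against M1, among them Rpl26, which was then called lower in I at -0.12 (limma, adjusted p = 0.00322). Rps2, with 45 annotated copies, kept its fall in I, at -0.64 (adjusted p = 1.31e-06). Of 139 copy rows tested, 49 were called higher and 8 lower in M1, and 4 higher and 34 lower in I against M1. Of all genes tested 30.5% were higher and 55.3% lower in M1, and 24.9% higher and 39.3% lower in I against M1.

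Fold changes went with coding length in every comparison. Over the 76 canonical members, Spearman's rho between coding length and log2 fold change was -0.66 for M1 against Mock, 0.42 for I against M1 and -0.43 for I against Mock. These points share the same libraries and are given with no test. The 38 members with coding sequences up to 462 bases had a median of 0.46 for M1 against Mock and the 38 longer ones 0.16. For I against M1 the short ones had -0.31 and the long ones -0.20. Other genes with coding sequences up to 462 bases (689) had a median of 0.13 for M1 against Mock, beside -0.26 for all 10144 other genes with a coding length. For I against M1 those 689 genes had a median of -0.20, near that of the long members, beside -0.06 for the 10144. A lower level in I was thus also seen in other short genes.

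The libraries within a group also differed by coding length. In log2 units, short members deviated from their group mean by a median of 0.04, -0.08 and 0.02 in the 3 I libraries, by -0.06, 0.05 and 0.01 in M1 and by -0.08, -0.02 and 0.09 in Mock. Long members deviated by -0.02 to 0.04 in I, -0.02 to 0.03 in M1 and -0.04 to 0.02 in Mock. Spearman's rho between coding length and deviation ran from -0.66 in Mock replicate 3 to 0.65 in Mock replicate 1. It was only -0.14 in M1 replicate 3, and in I replicate 1 short and long members both stood at 0.04. Libraries also differed as a whole: Mock replicate 3 and I replicate 1 were each highest of their group in 58 of 76 canonical members. I replicate 2 was lowest of its group in 51 and Mock replicate 1 in 65. The part of these deviations in the differences between groups was not tested. Leaving out each library in turn, the members' median for M1 against Mock lay between 0.29 and 0.37, and 61 to 70 members were called lower in I than in M1.

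**Figure D5:**
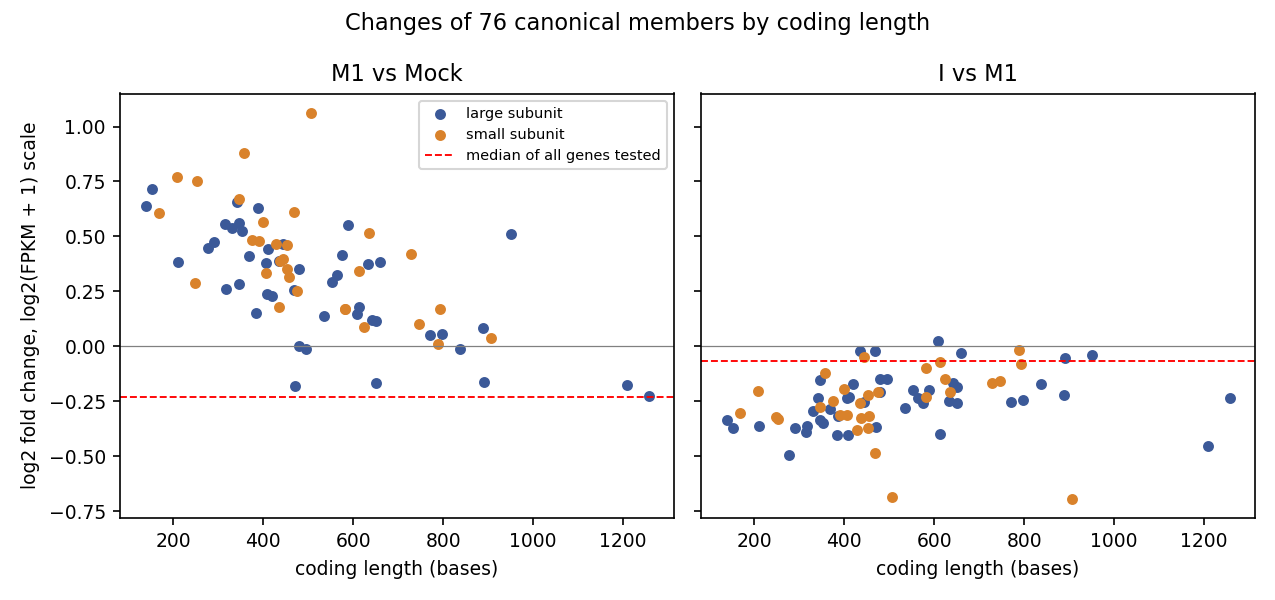
Fitted log2 fold change (log2(FPKM + 1) scale, vertical axis) of 76 canonical members against coding length in bases (horizontal axis), for M1 vs Mock and I vs M1, as deposited; blue dots are large and orange dots small subunit members, and the red dashed line is the median of all genes tested. On this scale short members lie highest in M1 vs Mock, at a median of 0.46 up to 462 bases and 0.16 above, and lower in I vs M1, at -0.31 and -0.20, although the 2 lowest there, Rps2 and Rps10, are above 462 bases.

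Canonical ribosomal proteins that the name rule misses were looked up separately. Fau, a ubiquitin-like fusion that yields a small subunit protein, had 754, 723 and 758 FPKM in I, 743, 819 and 799 FPKM in M1, and 403, 418 and 444 FPKM in Mock. Its log2 fold change in M1 against Mock was 0.90 ± 0.04 (SE; limma, adjusted p = 3.94e-09), and I and M1 overlapped. Rpsa, the laminin receptor protein of the small subunit, was higher in M1 by 0.19, or -0.35 under quantile normalization, and lower in I than in M1, at -0.43. Rack1, a scaffold on the small subunit, was not called between M1 and Mock at 0.05 (adjusted p = 0.126). RLE and upper quartile scaling called it higher, at 0.35 and 0.23, as voom did at 0.05, and quantile normalization called it lower, at -0.39.

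The carriers that escort new ribosomal proteins were lower in M1. All 6 tested (Grwd1, Heatr3, Tsr2, Ltv1, Bccip and Aamp) were called lower in M1 than in Mock, where 55.3% of all genes tested were, with a median log2 fold change of -1.35, although Aamp, at -0.18 (adjusted p = 0.0075), stood at 0.11 under RLE scaling. Pdcd2 was not analysed here. Grwd1, the relative of a yeast chaperone for Rpl3, had 1.54, 2.22 and 1.52 FPKM in I, 2.25, 3.02 and 1.92 FPKM in M1, and 16.5, 17.6 and 16.6 FPKM in Mock, a change of -2.41 ± 0.12 in M1 (SE; limma, adjusted p = 4.52e-09). Heatr3, known in human cells as an importer of Rpl5, fell by 1.98, Tsr2, named in yeast as the escort of Rps26, by 1.49, and Ltv1, a yeast partner of Rps3, by 1.21. Their clients Rpl3, Rpl5, Rps26 and Rps3 changed by -0.18, -0.16, 0.67 and 0.42 on the same scale.

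Genes that control TOP mRNAs were mostly lower in M1. Of 14 tested, 10 were called lower and 2 higher, with a median of -0.57. Of all genes tested, 55.3% were called lower and 30.5% higher. RLE scaling gave 9 of the 14 lower and 4 higher, beside 42.6% and 43.1% of all genes. Larp1, which binds the TOP tract, had 22.3, 21.9 and 22.4 FPKM in I, 25.4, 27.5 and 27.8 FPKM in M1, and 78.9, 76.5 and 79.2 FPKM in Mock, a change of -1.50 ± 0.03 in M1 (SE; limma, adjusted p = 9.72e-12). Eif4ebp1, a translation repressor under mTOR, was higher by 0.58. Among 16 other mRNAs with a TOP start, 4 were called higher and 8 lower in M1, close to the shares of all genes tested. That balance turned to 10 higher and 4 lower under RLE scaling, where 43.1% and 42.6% of all genes were called. As deposited, the 16 ran from -1.41 for Npm1, a nucleolar protein, to 2.17 for Vim, an intermediate filament protein. Tpt1, a much translated TOP mRNA, was higher by 0.87 ± 0.03 in M1 (adjusted p = 2.77e-10). In I against M1, 13 of those 16 were called lower and 2 higher, where 39.3% of all genes tested were called lower and 24.9% higher.

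Mitochondrial ribosomal proteins, which build the organelle's own ribosomes, give a comparison family. Of 77, 18 were called higher and 41 lower in M1 against Mock, with a median of -0.15, where 30.5% of all genes tested were called higher and 55.3% lower. RLE scaling turned this to 42 higher and 21 lower, with a median of 0.13, beside 43.1% and 42.6% of all genes. On the deposited scale the 76 canonical cytosolic members had 62 higher and 4 lower and a median of 0.35. In I against M1 both families were lower, with 66 of 77 mitochondrial members called lower at a median of -0.36 and 62 of 76 canonical cytosolic members at -0.25. The share of all genes called lower there was 39.3%, and their median was -0.07. The summed mitochondrial FPKM was 898 to 928 in I, 1103 to 1133 in M1 and 1149 to 1199 in Mock. The difference between the families was not tested.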

How the data were processed

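Poly(A) RNA was sequenced in 9 libraries. The values the authors deposited are FPKM. The headers do not name the unit, which rests on the values themselves: FPKM times GENCODE vM21 exon length gave whole fragments, within 0.05, in 98.4% to 98.5% of values. HISAT2 2.2.1 and featureCounts 2.0.1, after fastp 0.20.1, were run with GRCm38, per the submitters' processing notes. Strand use, annotation and the treatment of reads with several matches: not given in the sources used here. Every row is above 0 in all 9 libraries, so genes at 0 anywhere are not analysed here.

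One model was fitted to log2(FPKM + 1) of all 9 libraries with limma 3.58.1 in R 4.3.3, with moderated variances and an intensity trend. Rows with at least 0.5 FPKM in at least 3 libraries entered, 11156 of 12474. Calls used a Benjamini-Hochberg adjusted p under 0.05 over all of them. The log2(FPKM + 1) scale understates changes of low genes. The fit was tested on simulated data. Pseudogene copies were found with BLAST 2.17.0, at 90% identity or more over at least 50% of the coding length. Promoter sequences are from RefSeq and gene positions from GENCODE vM21.

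Named genes are the 6 highest members, the 6 largest called rises and falls in M1 vs Mock and in I vs M1, and fixed role groups, of which the text names only some; a few results are not reported here. The members and lists were chosen with earlier results of these data known. The alternatives were 3 other scalings, a pseudocount of 0.1, no filter, voom on recovered fragments, a replicate block and leaving out each library. Sums with pseudogene copies and a ratio over canonical members were added after seeing the data.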

Additional observations from a re-analysis of the deposited data

How the results depend on the processing

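For M1 vs Mock, RLE scaling gave 2 members lower and a median of 0.62, upper quartile scaling 2 lower and 0.50, and quantile normalization 31 higher, 30 lower and 0.039. For I vs M1, the median was -0.16 under RLE scaling and -0.15 under quantile normalization, which gave 3 higher. For I vs Mock, RLE scaling gave 78 higher, 6 lower and 0.46, upper quartile scaling 62, 7 and 0.30, and quantile normalization 20, 43 and -0.11, a reversed sign. The ratio of large to small subunit was 0.996 in I, 1.01 in M1 and 0.952 in Mock from medians. It was 1.56, 1.53 and 1.62 in I, M1 and Mock without the 3 highest members of each subunit, and 1.52, 1.54 and 1.56 over canonical members.

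Quantile normalization reversed the M1 vs Mock log2 fold change of Rplp1 (-0.019), Rplp0 (-0.018), Rps3a1 (-0.32), Rpl8 (-0.52), Rps6 (-0.43), Rps2 (-0.10), Rpl27 (-0.13), Rpl11 (-0.20), Rpl23a (-0.17), Rps4x (-0.59), Rps12 (-0.034), Rpsa (-0.35) and Rack1 (-0.39). It also reversed Rplp1 for I vs Mock (-0.32), and Rpl12 (0.027), Rpl23a (0.11), Rps4x (0.11) and Rps12 (0.084) for I vs M1. RLE scaling reversed Rpl4 (0.076), Rpl3 (0.12), Rpl10a (0.13), Rpl5 (0.14) and Rpl12 (0.29) for M1 vs Mock, and upper quartile scaling Rpl10a (0.007), Rpl5 (0.013) and Rpl12 (0.16). The cause was not tested.

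Leaving out 1 library gave 62 to 70 higher, 6 to 7 lower and medians of 0.29 to 0.37 for M1 vs Mock. It gave 0 to 1 higher, 61 to 70 lower and medians of -0.27 to -0.22 for I vs M1, the 1 without I replicate 2. For I vs Mock it gave 30 to 43 higher, 20 to 23 lower and medians of 0.05 to 0.12. The ratio lay at 1.48 to 1.49 in I, 1.496 to 1.514 in M1 and 1.52 to 1.53 in Mock. Replicate numbers did not pair the libraries, with correlations of deviations from -0.115 to 0.0474. The fit with the replicate block gave 67 higher and 6 lower for M1 vs Mock, 66 lower for I vs M1, and 36 higher and 21 lower for I vs Mock. Over the named genes, alternatives other than left-out libraries kept 729 results on their side of the threshold, while 25 lost it, 20 gained it and 26 reversed.

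Low members such as Rpl24, at 3 to 22 fragments per library, are limited by depth. Genes with near-identical copies are limited by how reads were assigned.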
